A study of Mus musculus with 9 samples.

Results

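Genes for positive acute phase proteins of the liver other than Saa1, Saa2 and Saa3 were taken by name, and 10 of 10 were found in a table of 24341 genes. They were the orosomucoid genes Orm1, Orm2 and Orm3, the haptoglobin gene Hp, the hemopexin gene Hpx, the pentraxin genes Apcs, Crp and Ptx3, the serum amyloid A family gene Saa4, and Itih4, a heavy chain gene of the inter-alpha-trypsin inhibitor family. Levels were measured by 3′ mRNA sequencing of bulk liver from 9 wild-type C57BL/6 mice, with 3 mice given FGK45, an agonist antibody to CD40 (mice 2, 5 and 9), and 6 control mice given PBS (mice 3, 4, 7, 8, 11 and 12), 48 hours after treatment. The general methods of the study describe sex-matched mice of 8 to 12 weeks of age unless stated otherwise, and they state that some anti-CD40 mice without a systemic inflammatory response were left out. Whether this applied to the sequenced animals is not stated. Each library came from 1 liver and therefore holds RNA of hepatocytes and of every other cell in the sample.

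The acute phase response is the change in plasma protein synthesis that the liver mounts within hours to days of infection, injury or cytokine release. Hepatocytes respond to IL-6-type cytokines, which act through gp130 and STAT3, and to IL-1 and TNF, which act through NF-κB, with C/EBP factors taking part in both arms. Positive acute phase proteins are those whose synthesis increases, and they bind hemoglobin, heme, lipids, drugs or microbial and damaged-cell surfaces.

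Values were deposited as FPKM, a read density scaled to transcript length and to a factor for each library, with a floor of 0.01. Reads in 3′ libraries come from transcript ends, so the division by length in FPKM does not make different genes comparable. Levels are compared only between mice, for the same gene or for the same sum of genes. A summed FPKM can be carried by a few genes of high FPKM and is not a measure of cell number. Read totals of the libraries are not given in the sources used here. The steps between low values gave a depth of 0.991 to 1.13 for the anti-CD40 group and 0.870 to 1.06 for the control group, as a multiple of the geometric mean over all mice. Changes are log2 fold changes of FPKM + 0.1 from limma. They were adjusted over the 13807 genes that reached 0.1 FPKM on average over the 9 mice, a filter that all 10 genes passed. A gene with a mean under 0.1 in 1 group could pass only by being higher in the other, so the filter fixed its direction. Among the 10 genes this was the case for Ptx3, with a mean of 0.0772 in the control mice and 1.44 after anti-CD40.

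Sequence upstream of the transcription start is shown for both members of 2 related pairs, because the members of each pair changed by different amounts. The sequences are RefSeq promoter windows of build GRCm38.p6 (the build also called mm10), cut to the 250 bases before the start, and given 5′ to 3′ on the strand of the gene. The windows were Orm2 at chr4:63362199-63362448 (plus strand), Orm3 at chr4:63355908-63356157 (plus strand), Apcs at chr1:172895055-172895304 (minus strand) and Crp at chr1:172697806-172698055 (plus strand). Capitals mark matches to the motifs searched on both strands, which were the STAT palindrome TTCNNNGAA, the IL-6 response element core CTGGGAA, the C/EBP-like motif TTNNGNAA, an NF-κB-like motif (GGGA and CC with 4 bases between), an HNF1-like motif (GTTAAT and ATTAAC with 1 base between) and TATAAA.
Orm2: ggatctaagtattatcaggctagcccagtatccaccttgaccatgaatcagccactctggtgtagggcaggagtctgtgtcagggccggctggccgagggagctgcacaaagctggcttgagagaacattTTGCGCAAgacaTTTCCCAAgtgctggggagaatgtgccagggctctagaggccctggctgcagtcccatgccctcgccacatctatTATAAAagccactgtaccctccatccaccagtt
Orm3: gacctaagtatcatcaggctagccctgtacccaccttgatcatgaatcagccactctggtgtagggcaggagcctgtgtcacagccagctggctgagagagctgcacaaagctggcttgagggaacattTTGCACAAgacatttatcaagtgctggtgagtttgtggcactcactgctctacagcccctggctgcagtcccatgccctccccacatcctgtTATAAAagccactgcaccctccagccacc
Apcs: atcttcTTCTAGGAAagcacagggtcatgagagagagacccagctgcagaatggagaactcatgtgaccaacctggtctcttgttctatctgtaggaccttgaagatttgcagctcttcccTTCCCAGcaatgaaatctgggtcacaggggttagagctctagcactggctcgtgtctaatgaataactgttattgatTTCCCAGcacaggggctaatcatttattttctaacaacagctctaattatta
Crp: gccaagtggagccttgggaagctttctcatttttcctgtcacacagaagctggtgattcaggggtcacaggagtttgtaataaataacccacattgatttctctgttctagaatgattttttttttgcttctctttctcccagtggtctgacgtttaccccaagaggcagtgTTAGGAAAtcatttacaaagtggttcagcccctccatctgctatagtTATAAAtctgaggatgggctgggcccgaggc

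The windows of Orm2 and Orm3 were 89.0% identical over aligned bases. Both held TATAAA near the start. Both held a C/EBP-like match, which in Orm2 read TTGCGCAA at positions -120 to -113 from the start, a palindrome that matches on both strands, and in Orm3 read TTGCACAA at -121 to -114. Orm2 held a further C/EBP-like match, TTTCCCAA, at -108 to -101. Matches to different motifs did not overlap in these windows. The window of Apcs held 1 STAT palindrome and 2 IL-6 response element cores and no C/EBP-like match, and that of Crp held 1 C/EBP-like match and TATAAA and neither of the other motifs. Among 32841 RefSeq windows of the same length, 7.02% held the STAT palindrome, 9.10% the IL-6 response element core, 36.9% the C/EBP-like motif and 12.4% TATAAA. Of the 8 genes with a window (Orm1 and Hp had none), 6 held a C/EBP-like match and 2 (Apcs and Itih4) a STAT palindrome. No window of the 8 held the NF-κB-like motif, against 17.6% of all windows, or the HNF1-like motif, against 0.00913%. With 8 windows, neither the presence nor the absence of any of these motifs is read as a result. The windows of Orm2 and Orm3, both among the 6, are too alike to count as separate cases. A match is a run of letters and not a shown binding site.

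Of the 10 genes, 9 were higher after anti-CD40 and 0 were lower at an adjusted p under 0.05 from limma, whereas of all genes tested 45.1% were called, 23.5% higher and 21.7% lower. In the same 9 genes every anti-CD40 mouse was above every control mouse, which held in that direction for 22.7% of all genes tested, and in the other direction for 19.6%. The exception was Crp, and Ptx3, among the 9, passed the filter on low values only through the anti-CD40 mice. The median log2 fold change of the 10 genes was 2.59, against 0.0056 for all genes tested. For each of the 9 genes the exact permutation p was 0.0238, the smallest that the 84 splits of the mice into 3 and 6 allow in a 2-sided test. In bulk liver, fewer cells of a type and less RNA per cell cannot be told apart. The number of genes called depended on scaling, since 52.0% of all called genes were higher as deposited. The share was 77.4% after the FPKM of every mouse were set to 1 common total without Saa1, Saa2 and Saa3. All 10 genes had positive log2 fold changes under every scaling tried, of which median of ratios scaling could change little.

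**Figure D1:**
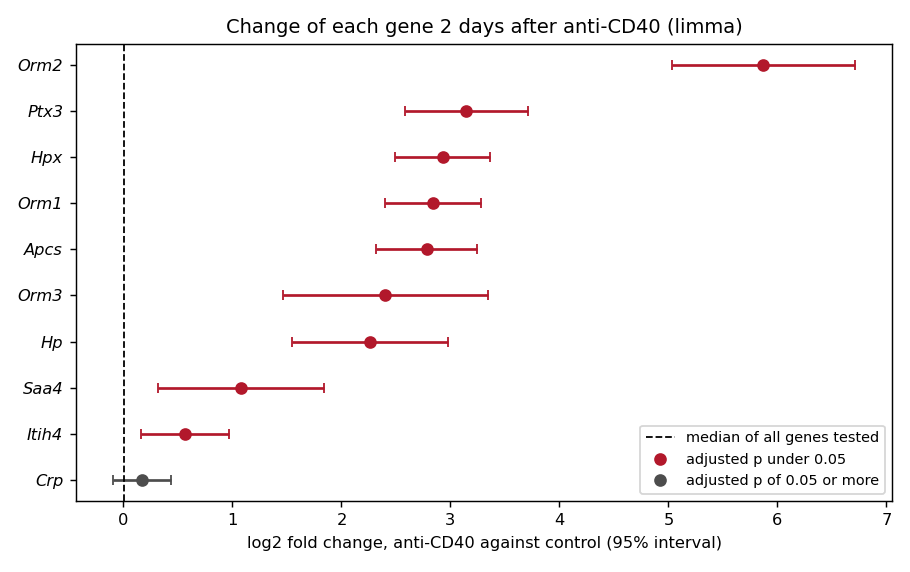
Log2 fold change of each of the 10 genes (anti-CD40 against control, log2(FPKM + 0.1), limma), with bars for the 95% interval and a dashed line at the median of all genes tested. Orm2 stands apart at 5.87, 6 genes lie between 2.26 and 3.14, Saa4 and Itih4 lie lower at 1.08 and 0.56, and the interval of Crp spans 0.

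Orosomucoids, also called alpha-1-acid glycoproteins, are plasma lipocalins that carry basic drugs and lipids. In the mouse they are encoded by 3 adjacent genes on chromosome 4, all on the plus strand, with Orm1 from 63344566 to 63348162, Orm3 from 63356162 to 63359511 and Orm2 from 63362449 to 63365877 (mm10). Orm2 changed most of the 10 genes and held rank 24 among all genes tested. FPKM of 965, 995 and 1029 were measured in mice 2, 5 and 9 of the anti-CD40 group, and values ranged from 9.88 to 44.7 with a median of 14.8 in the control mice. The groups were far apart, and the lowest anti-CD40 mouse was 21.6 times the highest control mouse, mouse 8. The control mean of 19.3 ± 12.8 (SD, n = 6) and the anti-CD40 mean of 996 ± 32.1 (SD, n = 3) differed 51.6-fold (log2 fold change 5.87, standard error 0.38, limma adjusted p = 1.95e-06).

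Orm1 was 11735, 11866 and 11272 after anti-CD40, against 1168 to 2358 with a median of 1638 in the control mice. The anti-CD40 mice were close to each other and all far above the controls. The log2 fold change was 2.84 (standard error 0.20, limma adjusted p = 2.88e-06), from a mean of 1664 ± 411 (SD, n = 6) to 11624 ± 312 (SD, n = 3). Orm3 was 134, 151 and 189.5 after anti-CD40, against 12.3 to 54.5 with a median of 29.4 in the control mice. Its controls fell into a low and a high range, with mice 3 and 8 at 54.4 and 54.5 and the other 4 at 33.2 or below, but none reached the anti-CD40 mice. Orm3 rose by 2.40 on the log2 scale (standard error 0.42, limma adjusted p = 0.00103).

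Orm2 rose more than each of its neighbors. Any constant offset between the FPKM scales of 2 genes cancels in the change of their difference between the groups, so only that change is read here. This holds for values well above the pseudocount, which those of Ptx3 in the control mice were not. The difference between Orm1 and Orm2 in log2(FPKM + 0.1) went from 6.58 ± 0.49 (SD, n = 6) to 3.54 ± 0.080 (SD, n = 3), a change of -3.03 (exact permutation p = 0.0238, adjusted over 9 pairs 0.0357). The difference between Orm2 and Orm3 changed by 3.47, with the same p values. The change of Orm1 relative to Orm3 was 0.44, with overlapping groups (exact permutation p = 0.357, adjusted over 9 pairs 0.357). The 6 pairs of related genes past the threshold, here and later, sat at the smallest p that the design allows, and their adjusted p became 0.107 without any 1 anti-CD40 mouse and 0.0536 without any 1 control mouse other than mouse 4, with the groups still apart.
These values rest on telling the 3 transcripts apart. In the GENCODE M21 transcripts, the last 300 bases of Orm1 and Orm2 differed at 7 positions, with a longest identical run of 141 bases, so a read from that stretch could fit both genes. Orm3 differed more in the same stretch, at 26 positions from Orm1 and 24 from Orm2. Over the coding sequence the identity was 89.9% for Orm1 and Orm2, 86.4% for Orm1 and Orm3, and 88.3% for Orm2 and Orm3.

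**Figure D2:**
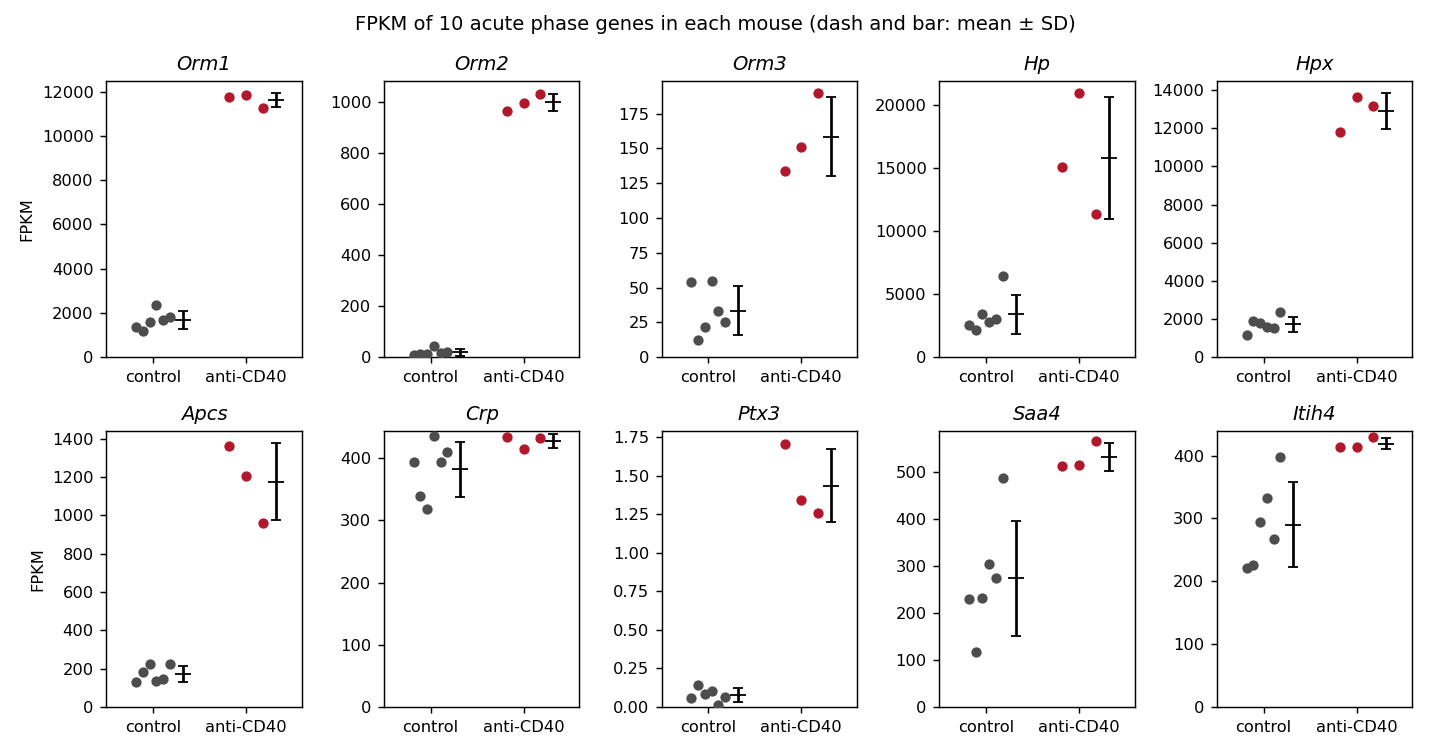
FPKM of each of the 10 genes (1 panel per gene, linear axes from 0 that differ between panels), with a point for each of the 6 control mice (gray) and 3 anti-CD40 mice (red) and a dash and bar for the mean ± SD. Points of the groups are separate in every panel but that of Crp, narrowly so for Saa4 and Itih4.

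Haptoglobin binds free hemoglobin and hemopexin binds free heme, and both limit the loss of iron and the oxidative damage that follow the rupture of red cells. Hp (chromosome 8, 109575128 to 109579172, minus strand) was 15059, 20944 and 11331 in mice 2, 5 and 9 of the anti-CD40 group, and 2169.7 to 6459 with a median of 2899 in the control mice. The groups did not overlap, but the highest control, mouse 12, was well above the other controls. The log2 fold change was 2.26 (standard error 0.32, limma adjusted p = 2.59e-04), from a mean of 3409 ± 1555 (SD, n = 6) to 15778 ± 4847 (SD, n = 3). Mouse 5, which had the most Hp, also had the highest summed FPKM of 10 genes for pancreatic enzymes (1207, against 28.0 to 190.5 in the other mice). Without mouse 5 the log2 fold change of Hp was 2.04. A link between the pancreatic sum and Hp was not tested.

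Hpx (chromosome 7, 105591611 to 105600116, minus strand) was 11826, 13659.8 and 13183 after anti-CD40, against 1187 to 2388 with a median of 1679 in the control mice. It was 4.95 times higher in the lowest anti-CD40 mouse than in the highest control, again mouse 12. The mean rose 7.46-fold (log2 fold change 2.93, standard error 0.20, limma adjusted p = 2.32e-06). The change of Hp relative to Hpx was -0.67 on the log2 scale, with overlapping groups (exact permutation p = 0.0714, adjusted over 9 pairs 0.0918). Without control mouse 4 it was -0.81, with groups apart (exact permutation test, adjusted p = 0.0459).
The genes that act downstream of these carriers moved differently. Cd163, which encodes the macrophage receptor for haptoglobin bound to hemoglobin, fell from an FPKM of 7.26 ± 3.73 (SD, n = 6) to 0.0634 ± 0.0561 (SD, n = 3), with a log2 fold change of -5.39 (limma adjusted p = 6.25e-06). Lrp1, which encodes the receptor for hemopexin bound to heme, had a log2 fold change of -0.31 (limma adjusted p = 0.234), and Hmox1, which encodes the heme-degrading enzyme heme oxygenase 1, rose by 1.35 on the log2 scale (limma adjusted p = 3.46e-04). Cd163 is also a marker of Kupffer cells, and all 9 Kupffer cell markers tested were lower after anti-CD40, with a summed FPKM of 58.0 to 68.5 against 339 to 509 in the control mice. Cd163 itself passed the filter on low values only through the control mice. The part of Kupffer cells in the Cd163 value was not tested. Of 6 erythroid genes tested, 0 were called in either direction, and their summed FPKM was 4176 to 14320 after anti-CD40 and 7494 to 50532 in the control mice, where mouse 4 was the highest.

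Pentraxins are ring-shaped pattern recognition proteins that bind microbial and dying-cell surfaces and engage complement and Fc receptors. The short pentraxins serum amyloid P component (Apcs) and C-reactive protein (Crp) are made by hepatocytes, and in the mouse serum amyloid P component is known as the major acute phase pentraxin, unlike in humans. Apcs (chromosome 1, 172893961 to 172895054, minus strand) was 1363, 1205 and 961 in mice 2, 5 and 9 of the anti-CD40 group and 131 to 224 with a median of 163 in the control mice. Every anti-CD40 mouse was at least 4.29 times the highest control. The mean went from 173 ± 42.6 (SD, n = 6) to 1176 ± 203 (SD, n = 3), a 6.79-fold rise (log2 fold change 2.78, standard error 0.21, limma adjusted p = 4.31e-06).

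Crp, which lies on the same chromosome (172698056 to 172699966, plus strand), was 435, 415 and 432 after anti-CD40, against 319 to 436 with a median of 394 in the control mice. All 3 anti-CD40 mice lay within the range of the controls. The control mean was 382 ± 44.2 (SD, n = 6) and the anti-CD40 mean 427 ± 11.0 (SD, n = 3) (log2 fold change 0.17, 95% interval -0.10 to 0.44, limma adjusted p = 0.276, exact permutation p = 0.0952). The interval holds fold differences from 0.935 to 1.35. Quantile normalization and rescaling to a common total without Saa1, Saa2 and Saa3 turned Crp into a call, at log2 fold changes of 0.63 (limma adjusted p = 4.86e-04) and 0.54 (limma adjusted p = 0.00168), where the median of all genes was itself -0.09 and 0.35. Crp was thus 0.72 and 0.19 above that median, against 0.16 in the values as deposited. The groups did not overlap in the log2 difference Apcs minus Crp, which changed by 2.61 (exact permutation p = 0.0238, adjusted over 9 pairs 0.0357). Their coding sequences were 63.6% identical, and no run longer than 6 bases was shared in the alignment of their last 300 bases.

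The long pentraxin Ptx3 is made outside hepatocytes, by myeloid, endothelial and stromal cells, and neutrophils store it in granules. Its levels were low, with FPKM of 1.71, 1.34 and 1.26 after anti-CD40, and in the control mice from the floor of 0.01 to 0.141, with a median of 0.0744. The steps between low values correspond to 65, 48 and 42 reads for mice 2, 5 and 9 (155 summed) and to 0 to 5 reads per control mouse (15 summed). No smaller whole numbers matched these steps to within 0.02 of a read, so these are the smallest numbers that fit and not counted reads. The log2 fold change was 3.14 (standard error 0.25, limma adjusted p = 6.77e-06), and since the control values are of the size of the pseudocount or below, it was 1.17 with a pseudocount of 1 and 4.27 with 0.01. The ratio of the mean FPKM was 18.6.
Ptx3 lies at 66219910 to 66225805 of chromosome 3 on the plus strand, by GENCODE M21, between exons of Veph1, which is read from the minus strand, and the deposited table gives both genes the same position. For Veph1, the smallest whole numbers that matched the steps were 0 to 2 reads per anti-CD40 mouse and 0 to 7 per control mouse. Neutrophil markers moved in the same direction as Ptx3. All 11 tested of 15 listed were higher after anti-CD40, with a summed FPKM of 4235 to 5226 against 19.3 to 157 in the control mice, while Mpo, Elane and Fcnb were below the filter on low values. Of those tested, Ngp, Ltf, Cxcr2, Mmp8 and Stfa2l1 had control means under 0.1 and passed the filter only through the anti-CD40 mice. The part of neutrophils in the Ptx3 and Orm2 values was not tested. Ptx3 rose relative to Crp (the difference Crp minus Ptx3 changed by -2.97 on the log2 scale, exact permutation p = 0.0238, adjusted over 9 pairs 0.0357), and its change relative to Apcs turned with the pseudocount, since the difference Apcs minus Ptx3 changed by -0.36 (exact permutation p = 0.333, adjusted over 9 pairs 0.357) and by 1.6 with a pseudocount of 1. Of the other 6 pentraxin family genes listed, none passed the filter, and Nptxr, Ptx4, Mptx1 and Mptx2 were at the floor in every mouse.

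**Figure D3:**
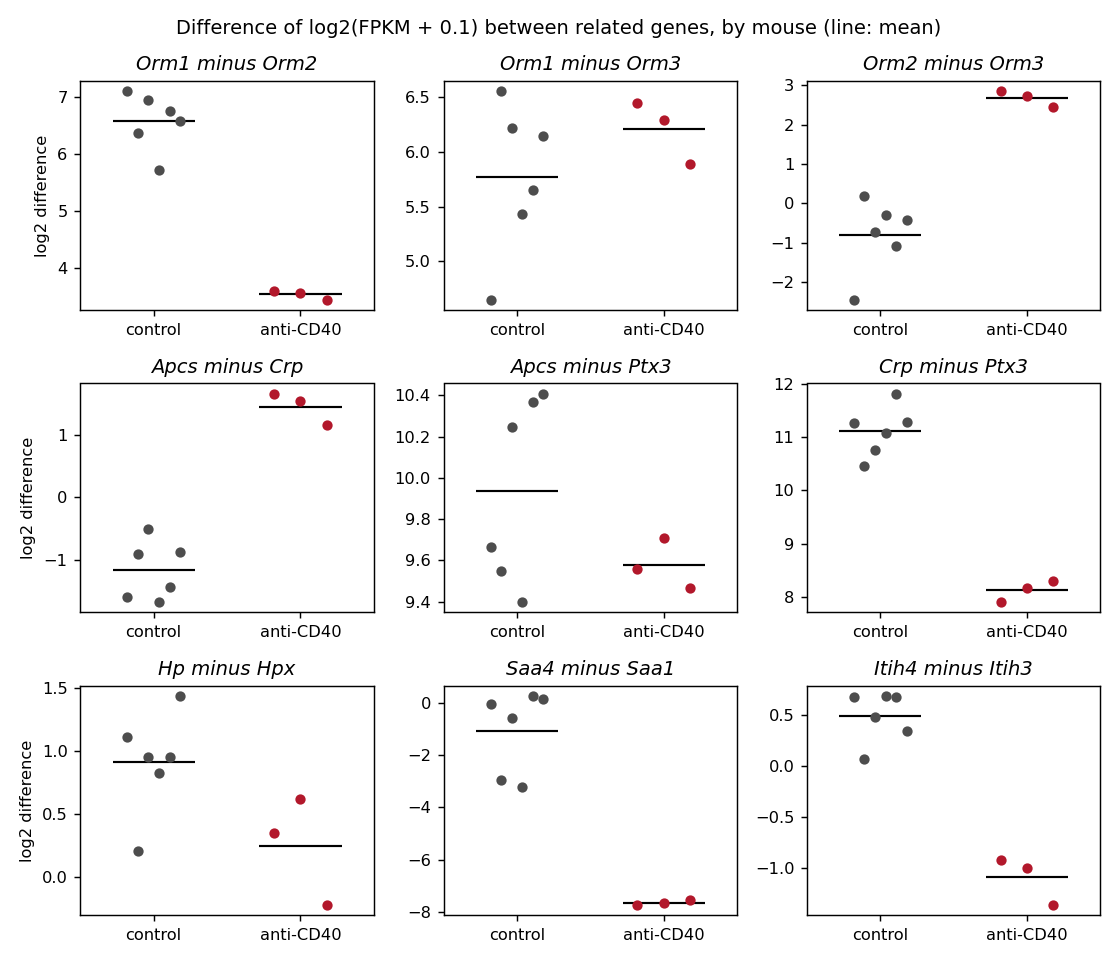
Difference of log2(FPKM + 0.1) between 2 related genes in each mouse, for 9 pairs, with control mice in gray, anti-CD40 mice in red and a line at the group mean. The groups are separate in 6 pairs and overlap for Orm1 minus Orm3, Apcs minus Ptx3 and Hp minus Hpx.

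Saa4 encodes a serum amyloid A protein that circulates on high-density lipoprotein and is known as the constitutive member of its family. It lies on chromosome 7 (46727999 to 46732543, minus strand) among the Saa genes. Saa4 was 513, 515 and 565 in mice 2, 5 and 9 of the anti-CD40 group and 116 to 487 with a median of 254 in the control mice. The lowest anti-CD40 mouse was 1.05 times the highest control, mouse 12, so that the groups were barely apart. The log2 fold change was 1.08 (standard error 0.34, 95% interval 0.31 to 1.84, limma adjusted p = 0.0264), and the call was lost when anti-CD40 mouse 2, 5 or 9 was removed (adjusted p of 0.0704, 0.0657 and 0.0812) and with no filter on low values (adjusted p = 0.0884). Relative to its inducible neighbor Saa1, Saa4 fell in every anti-CD40 mouse, from a log2 difference of -1.07 ± 1.59 (SD, n = 6) to -7.65 ± 0.082 (SD, n = 3), a change of -6.58 (exact permutation p = 0.0238, adjusted over 9 pairs 0.0357).

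Itih4 encodes a plasma protein that resembles the heavy chains of the hyaluronan-binding inter-alpha-trypsin inhibitors. It lies on chromosome 14 (30886476 to 30901986, plus strand). Itih4 was 413, 414 and 429 after anti-CD40, against 221 to 397 with a median of 281 in the control mice. As for Saa4, the groups did not overlap by a narrow margin, 1.04-fold, and mouse 12 was the highest control. The log2 fold change was 0.56 (standard error 0.18, 95% interval 0.16 to 0.97, limma adjusted p = 0.0280), and it missed the threshold when any 1 anti-CD40 mouse was removed (adjusted p from 0.0714 to 0.0836), without control mouse 11 (adjusted p = 0.0513) and with no filter on low values (adjusted p = 0.0704).
Its relative Itih3 changed more, by 2.15 on the log2 scale (limma adjusted p = 3.79e-05), from 208 ± 59.6 (SD, n = 6) to 907 ± 174 (SD, n = 3). The change of Itih4 relative to Itih3 was -1.59 (exact permutation p = 0.0238, adjusted over 9 pairs 0.0357). The other genes of the complex had log2 fold changes of -0.27 for Itih1, -0.28 for Itih2 and 0.39 for Ambp, which encodes the light chain bikunin, with limma adjusted p of 0.28, 0.267 and 0.118.

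Among the control mice the 10 genes were not highest in the same mouse. Mouse 8 was the highest control for Orm1, Orm2, Orm3 and Crp, and mouse 12 for Hp, Hpx, Saa4 and Itih4, whereas Apcs was highest in mouse 7 and Ptx3 in mouse 4. Mice 3 and 4 were each the lowest control for 4 genes. The coefficient of variation among controls ran from 11.6% for Crp to 66.1% for Orm2, and among the anti-CD40 mice from 2.13% for Itih4 to 30.7% for Hp. It was smaller in the anti-CD40 mice for each of the 10 genes, including the genes with small changes, and no test of this difference was run.

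**Figure D4:**
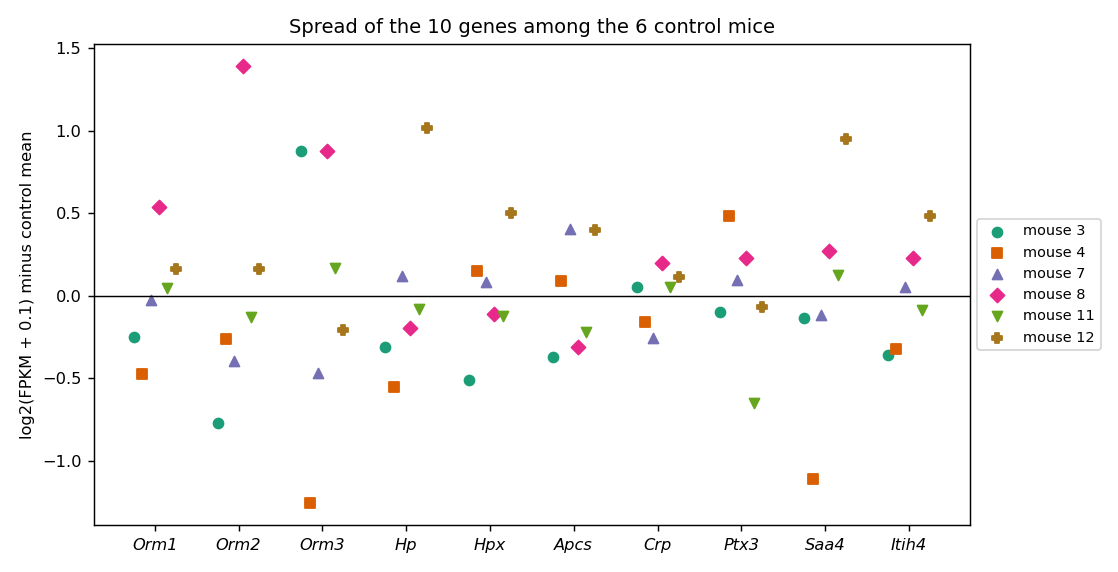
Log2(FPKM + 0.1) of the 10 genes in the 6 control mice, minus the control mean of each gene, with a color and marker for each mouse. Mouse 8 is the highest for Orm2, at 1.39 above the mean, and mouse 12 for Hp and Saa4, at 1.02 and 0.95 above it.

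The genes of other positive acute phase proteins, 30 in number and listed with earlier results of these data known, moved mostly in the same direction. Of these 30 genes, 25 were higher and 2 lower after anti-CD40 in limma, with a median log2 fold change of 1.79. A2m, among those higher, passed the filter on low values only through the anti-CD40 mice. The highest was Saa3, at 8.62, and the lowest Agt, which encodes angiotensinogen, at -1.40. The fibrinogen chain genes Fga, Fgb and Fgg rose by 0.98, 0.88 and 1.09 on the log2 scale, and the complement gene C3 by 1.30. Lbp, which encodes lipopolysaccharide-binding protein, rose by 1.68 and the ceruloplasmin gene Cp by 2.00. Hamp, the gene for the iron hormone hepcidin, which IL-6 is known to induce, had a log2 fold change of -0.06 (limma adjusted p = 0.8), with a mean of 1806 ± 187 (SD, n = 3) and 1902 ± 334 (SD, n = 6).
Genes for negative acute phase proteins, whose synthesis is known to decline, went the other way, with 10 lower and 2 higher of 15 and a median of -1.0. Serpina6, the gene for corticosteroid-binding globulin, was the lowest of these, at -4.52, and Apoa4 the highest, at 1.52. Hepatocyte markers were lower as well, 12 of 14 tested, with 1 higher, a median of -1.55 and a summed FPKM of 7378 to 9656 against 23689 to 40164 in the control mice. Alb, Apoa1 and Ttr are in both lists, and the 11 hepatocyte markers tested without them had 9 lower, 1 higher and a median of -1.53, with a summed FPKM of 3744 to 5500.3 against 13078 to 19774. The rise of Orm1, Hp, Hpx and Apcs, all made by hepatocytes, was thus measured in libraries in which these markers were lower.

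Of 16 cytokine and receptor genes tested, 12 were higher and 2 lower in limma, with a median of 1.25. Il6, Osm and Il11, among those higher, passed the filter on low values only through the anti-CD40 mice. The signal-transducing subunit gene Il6st (gp130) rose by 0.73 (limma adjusted p = 0.00140), Osmr, for the oncostatin M receptor, by 2.09 (limma adjusted p = 3.67e-05) and Il1r1 by 1.63 (limma adjusted p = 0.001). Il6ra had a log2 fold change of -0.57 (limma adjusted p = 0.263). Lifr, for the receptor of leukemia inhibitory factor, was the lowest, at -2.93, and Il11 the highest, at 4.43. Il6, Il1b and Tnf themselves were higher by 1.19, 1.89 and 3.90 (limma adjusted p = 0.0121, 0.0387 and 7.21e-06). Their mean FPKM was 0.289, 15.2 and 3.89 after anti-CD40, against 0.0790, 5.82 and 0.179 in the control mice. For Il1b the groups overlapped, with a lowest anti-CD40 value of 13.3 and a highest control value of 14.6. The control values of Il6 (0.01 to 0.165) and Tnf (0.0396 to 0.310) lie near the pseudocount, so the size of these 2 changes depends on it.
Of 17 signaling and transcription genes, 7 were higher and 4 lower, with a median of 0.36. For this list and those that follow, the shares over all genes tested were 23.5% higher and 21.7% lower. Socs3, the feedback inhibitor of gp130 signaling, was the highest, at 2.5 (limma adjusted p = 2.20e-04). Stat3 rose by 1.07. Among the C/EBP factors, Cebpd rose by 1.07 (limma adjusted p = 0.00333), Cebpb had a log2 fold change of 0.53 (limma adjusted p = 0.270) and Cebpa, the lowest of the list, fell by 1.49 (limma adjusted p = 4.89e-04). Of 29 secretory pathway genes tested, 3 were higher and 1 lower, with a median of 0.21 and a range from -0.75 for Sec61g to 1.88 for Kdelr3. Of 18 genes for receptors and partners of the 10 proteins, 5 (27.8%) were higher and 4 lower, close to the shares over all genes tested, with a median of 0.071. Fpr2, for a receptor of serum amyloid A, was the highest, at 3.13, and Tlr4 had a log2 fold change of 0.50 (limma adjusted p = 0.133). Of the pentraxin and inter-alpha-trypsin inhibitor family genes other than the 10, those tested were Itih1, Itih2, Itih3, Itih5 and Ambp and no pentraxin. They had a median of -0.27, with 1 higher (Itih3) and 1 lower (Itih5, at -0.93).

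**Figure D5:**
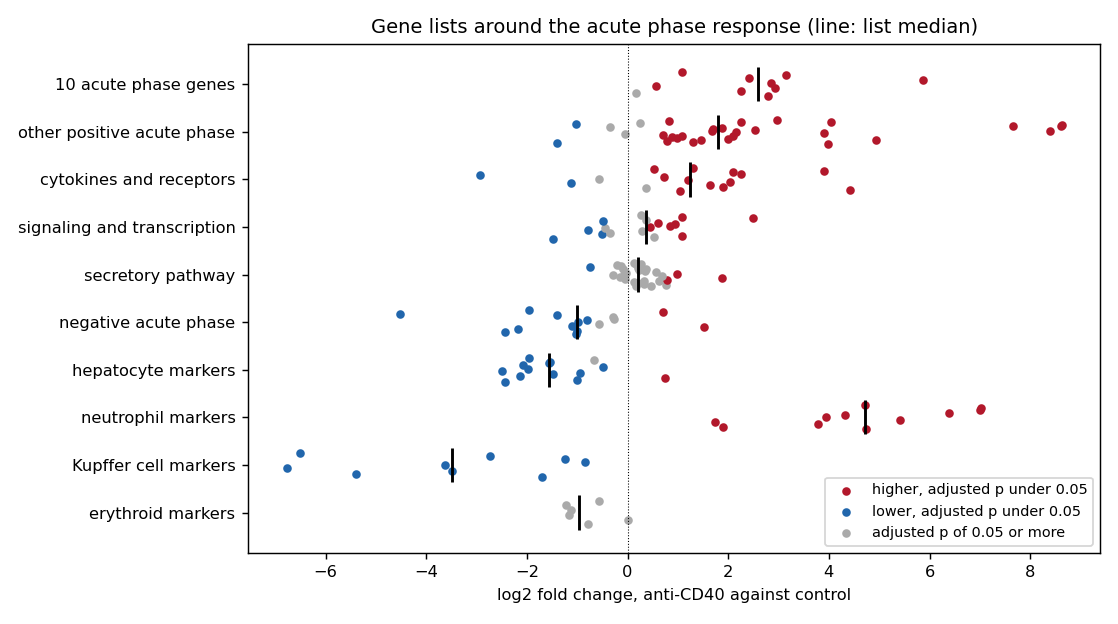
Log2 fold change of every gene tested in 10 lists (1 row per list, 1 point per gene), colored by the limma call, with a line at the list median. The medians are 2.59 for the 10 acute phase genes, 1.79 for other positive acute phase genes, -1.0 for negative acute phase genes and -1.55 for hepatocyte markers.

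Counts for markers of other cells stand beside the shares over all genes tested, 23.5% called higher and 21.7% lower. The part of other cells in the 9 changes was not tested. In limma, 7 of 10 monocyte and macrophage markers were higher and 2 lower, 6 of 7 dendritic cell markers were higher, 7 of 8 T and NK cell markers, and 4 of 4 B cell markers. Chil3, Flt3, Cd8a and Cd79a, counted here as higher, passed the filter on low values only through the anti-CD40 mice. Of 10 endothelial markers 2 were higher and 4 lower, and of 10 stellate cell and fibroblast markers 4 were higher and 2 lower. Of 6 cholangiocyte markers 2 were higher. With so few genes, the endothelial, stellate cell and cholangiocyte counts are not read as a difference between the groups. Of 9 pancreatic acinar markers 1 was called higher, but the signal lay in 1 mouse. The summed FPKM of this list was 1207 in mouse 5 and 28.0 and 33.8 in anti-CD40 mice 2 and 9, against 70.8 to 190.5 in the control mice.

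The genes whose profile over the 9 mice was most like that of each member were taken by the root mean square difference of log2(FPKM + 0.1), each profile centered on its control mean. Profiles were not scaled, so this measure mostly picks genes with a log2 fold change of similar size. Shared regulation was not tested. The nearest gene was Serpina3g for Orm1 (0.16), Chil1 for Orm2 (0.53), Cxcl14 for Orm3 (0.39), Psd for Hp (0.23), Myo1f for Hpx (0.15), Gbp5 for Apcs (0.15), Sfswap for Crp (0.059), Ptafr for Ptx3 (0.11), Fbxl18 for Saa4 (0.19) and Mthfsd for Itih4 (0.070). The next 2 were Ly6a and Sgol1 for Orm1, Mmp8 and Cst7 for Orm2, Il22ra1 and Serpina3h for Orm3, Slc13a5 and Irf7 for Hp, Cd93 and Ccdc120 for Hpx, Smpd3 and Serpina3f for Apcs, Sfr1 and Phrf1 for Crp, Cd52 and Bcl2l14 for Ptx3, Ifitm3 and Psmc3ip for Saa4, and Ap5z1 and Tuft1 for Itih4. Within the 10 genes the closest profiles were those of Hpx and Apcs, 0.23 apart. Orm2, which had the largest log2 fold change, was by this measure the farthest from any other, at 1.68 from Ptx3.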

How the data were processed

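The authors isolated RNA from bulk liver of 9 mice, made QuantSeq 3′ libraries, sequenced the libraries, aligned them to mm10 with STAR and used Cufflinks and CuffDiff. The deposited values are FPKM, 1 column per mouse, with a floor of 0.01. The annotation and the filter behind the table are not given in the sources used here. Mice were grouped by the sample titles. The 15 genes marked as failed for at least 1 mouse were dropped. The FPKM were tested as log2(FPKM + 0.1) with limma 3.58.1 in R 4.3.3 (eBayes with a trend, 2-sided, Benjamini-Hochberg over 13807 genes), with treatment as the only factor, without further scaling. The p values treat the mice as independent, and whether the mice shared cages or litters is not stated. Single genes, and differences between related genes (9 pairs), entered an exact permutation test over all 84 splits. The 10 members and all gene lists were chosen with earlier results of these data known, so a list is described by counts and its median only. Named genes were the 10 members, for each list the genes of the highest and lowest log2 fold change, genes linked to the members that were named in the design, and the 3 nearest profiles of each member. Motifs and transcript ends were read with Python 3.11.15 and biopython 1.88 from RefSeq (GRCm38.p6) and GENCODE M21 sequences, and gene starts were counted from 1. Alternatives were other pseudocounts, filters, scalings and variance models, and leaving out each mouse. The scripts were tested on simulated data. Read totals are not given, so no counting interval was computed.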

Additional observations from a re-analysis of the deposited data

Results flagged for a closer look

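Among the 6 control mice, the highest mouse stood apart for 2 of the 10 genes, judged by its gap to the next mouse as a share of the whole range (past the 95% critical value of Dixon's test for 6 samples, which chance passes in about 1 of 20 groups). For Orm2 this was mouse 8, at an FPKM of 44.7 against 9.88 to 19.0 in the other controls (0.739), and for Hp it was mouse 12, at 6459 against 2169.7 to 3458 (0.700). Without mouse 8 the log2 fold change of Orm2 was 6.15, and without mouse 12 that of Hp was 2.47.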

How the results depend on the processing

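Of the 19 alternatives to the reported processing, none turned the direction of any of the 10 genes. The number of these genes called higher was 9 with a pseudocount of 1 or 0.01, median of ratios scaling or another variance model, 10 with quantile normalization or with Saa1, Saa2 and Saa3 left out and the rest rescaled, 8 with a mean FPKM of at least 1 (where Ptx3 was not tested) and 7 with no filter. Leaving out 1 mouse gave 7 to 9 higher and 0 lower. Over all genes, the rescaling without Saa1, Saa2 and Saa3 gave 5635 higher and 1647 lower, against 3240 and 2990, by construction of a shift of 0.35 in the median. Leaving out 1 mouse gave 2482 to 3560 higher and 2332 to 3270 lower. For Apcs minus Ptx3 the value was 1.6 at pseudocount 1 and 0.36 after quantile normalization, both in the other direction, and -1.48 with a pseudocount of 0.01, which passed the threshold. Ptx3 had the lowest FPKM of the 10 genes, so the size of its log2 fold change depends on the pseudocount. Without 1 mouse the changes ranged from 2.51 to 2.76 for Apcs minus Crp, -3.10 to -2.83 for Crp minus Ptx3, -1.68 to -1.46 for Itih4 minus Itih3, -3.20 to -2.93 for Orm1 minus Orm2, 3.14 to 3.67 for Orm2 minus Orm3, -7.01 to -6.32 for Saa4 minus Saa1 and -0.85 to -0.43 for Hp minus Hpx. Fewer splits raised the smallest p there, to 0.0714 without an anti-CD40 mouse (28 splits). In limma, single genes kept their side of the threshold in 178 instances, lost the call in 9 (4 for Saa4 and 5 for Itih4) and gained it in 2, both for Crp. In the exact test the 27 lost calls were all without an anti-CD40 mouse, where no p under 0.05 can be reached, and Crp gained the call in 3. Saa4 minus Saa1 could not be computed without Saa1. No paired analysis was possible because the labels give every mouse a number of its own. Read totals and strand setting are not given, the Orm genes may share reads, and 3 mice in 1 group limit the precision.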
